A study of Mus musculus with 6 samples.

Results

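The genes described here make or import heme and iron, build the membrane of the red blood cell, or regulate the erythroid programme, and their transcripts were followed in tibial cartilage of mice with and without Adam10 deletion in chondrocytes. The list holds 33 genes, each represented by its brightest probe among the array probes whose accession belongs to it. A probe was found for 32 of them, and 31 entered the test among 25494 features, of which 15658 carry a gene symbol. Ahsp, which encodes a chaperone of alpha globin, was not analysed here, and the probe of Rhag was above background on too few arrays to be tested. RNA came from tibial cartilage of C57BL/6 mice. The 3 control mice are given no further genotype, and the 3 mutant mice carry loxP-flanked Adam10 alleles (flox/flox) with Cre recombinase under the Col2a1 promoter, which is active in chondrocytes. No age or other treatment is given. Each mouse was measured on 1 Agilent 1-colour array from 100 ng of total RNA. Adam10 encodes a membrane protease that sheds cell surface proteins.

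Heme is made from glycine and succinyl-CoA by a chain of enzymes split between mitochondria and cytosol, and in erythroid cells the first step is carried out by a dedicated enzyme, Alas2. Developing red cells take up iron through the transferrin receptor, and lay a spectrin network under the membrane that is tied to band 3 (Slc4a1) by ankyrin. Erythropoietin acts through its receptor Epor, and the factors Gata1, Klf1 and Tal1 switch on most genes of the programme. Cartilage itself has no blood supply, whereas the marrow and the vessels beside the tibial growth plate hold erythroid cells.

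Promoter sequences of 24 of the 33 genes were found in RefSeq (GRCm38.p6), and the 250 bases before each start site were searched on both strands for letters that erythroid factors are known to bind. GATAA, the core bound by GATA factors, was present for 14 of the 24 genes, and in 22.6% of the 32851 promoter windows of the same length. CACCC, the core bound by Klf1 and its relatives, was present for 18 genes, and in 52.0% of windows. Both occurred for 12 genes, and in 10.1% of windows. Genes with several start sites were counted if any window held the letters, which raises their count relative to single windows. The 5 stretches below, each the 200 bases just before the start site, show a transcription factor, the erythropoietin receptor and 2 surface proteins whose signals spanned a wide range among the controls, and the transferrin receptor Tfrc, whose signal did not. They are written 5′ to 3′ on the strand of the gene, and capitals mark GATAA or CACCC on either strand (TTATC and GGGTG on the other).
Klf1, chr8:84901782-84901981, plus strand: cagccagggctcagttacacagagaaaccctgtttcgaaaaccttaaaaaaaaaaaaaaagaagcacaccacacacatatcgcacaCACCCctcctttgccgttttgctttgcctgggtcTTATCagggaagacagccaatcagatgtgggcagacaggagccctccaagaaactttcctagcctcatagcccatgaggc
Epor, chr9:21963577-21963776, minus strand: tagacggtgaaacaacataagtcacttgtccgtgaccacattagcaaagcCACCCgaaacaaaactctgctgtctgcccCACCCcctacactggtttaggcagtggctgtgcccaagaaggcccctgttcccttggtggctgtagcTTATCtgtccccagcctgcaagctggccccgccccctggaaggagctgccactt
Rhd, chr4:134864336-134864535, plus strand: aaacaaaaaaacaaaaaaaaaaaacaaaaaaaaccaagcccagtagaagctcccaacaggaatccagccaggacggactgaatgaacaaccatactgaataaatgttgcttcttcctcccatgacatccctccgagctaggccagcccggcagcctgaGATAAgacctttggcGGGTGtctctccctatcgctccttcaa
Icam4, chr9:21029232-21029431, plus strand: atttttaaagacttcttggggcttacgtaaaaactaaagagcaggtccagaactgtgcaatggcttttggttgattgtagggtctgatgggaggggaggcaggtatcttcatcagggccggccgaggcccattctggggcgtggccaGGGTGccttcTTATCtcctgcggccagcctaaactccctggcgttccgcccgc
Tfrc, chr16:32608696-32608895, plus strand: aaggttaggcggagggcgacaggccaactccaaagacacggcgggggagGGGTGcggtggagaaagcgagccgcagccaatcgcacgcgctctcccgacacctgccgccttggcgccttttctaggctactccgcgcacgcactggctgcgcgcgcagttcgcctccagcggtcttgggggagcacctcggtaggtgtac

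The GATAA letters lay 80 bases before the start site of Klf1, 54 before that of Epor, 42 before that of Rhd and 43 before that of Icam4. The stretch of Tfrc held no GATAA and 1 CACCC, and a second Tfrc window, not shown, held no GATAA and 3 CACCC. These 5 genes were picked as examples, and a link between GATAA and the spread among controls was not tested. Gata1, Sptb and Tspo2, with control ranges of 4.58, 4.62 and 2.27, held no GATAA. Cpox and Uros, with control ranges of 0.44 and 0.53, held it. Among the 15 matched genes that are mostly erythroid by textbook knowledge, 12 held GATAA and 14 held CACCC. Among the 9 matched genes that are widely expressed, 2 held GATAA and 4 held CACCC. The E-box CAGNTG, which Tal1 binds with its partners, was present for 9 of the 24 genes and in 44.8% of windows. A 10-base form of the NF-E2 site was present for 0 of the 24 genes and in 0.134% of windows. These matches describe letters in the windows and were not tested for binding.

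All 6 arrays lay on 1 slide with 1 scan, and the share of spots well above background was 62.44% to 65.43%. Signals are given as log2 of the processed signal relative to the 75th percentile of the array, so 0 is the 75th percentile, and levels of different probes cannot be set against each other. All 10 chondrocyte markers examined, among them Col2a1 and Acan, were well above background on all 6 arrays. Adam10 read 1.61, 1.58 and 1.21 on controls 1 to 3 and 0.15, -1.70 and 0.31 on mutants 1 to 3, a difference of -1.88 (SE 0.53) with a limma adjusted p of 0.987. Transcripts of Xist exceeded those of the Y-linked Ddx3y on control 1 and mutant 3 and were below them on the other 4 arrays. Both groups were thus of mixed sex in the same proportion, and control 1 was the lone control with more Xist. The first row of the slide held the 3 controls and mutant 1.

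The erythroid genes as a whole were dim on control 3 and on the mutants, and bright on controls 1 and 2. Of the 31 tested genes, 28 had a lower mean in the mutants, where 40% of all features did. Their median difference, mutant minus control, was -0.62 on the log2 scale, against 0.04 over all features, and single genes ranged from -1.68 for Gata1 to 0.18 for Sptb. None passed the test: limma with Benjamini-Hochberg adjustment over all features called 0 of 31 genes and 0% of all features, with a smallest adjusted p over all features of 0.392. The erythroid genes had adjusted p-values of 0.987 to 0.993. At an unadjusted limma p below 0.05, 1 of 31 genes was lower in the mutants (1.88% of all features, 479 in number) and 0 were higher (1.55%, 396 in number). Expression in a tissue sample of this kind cannot separate fewer erythroid cells from less RNA per cell.

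**Figure D1:**
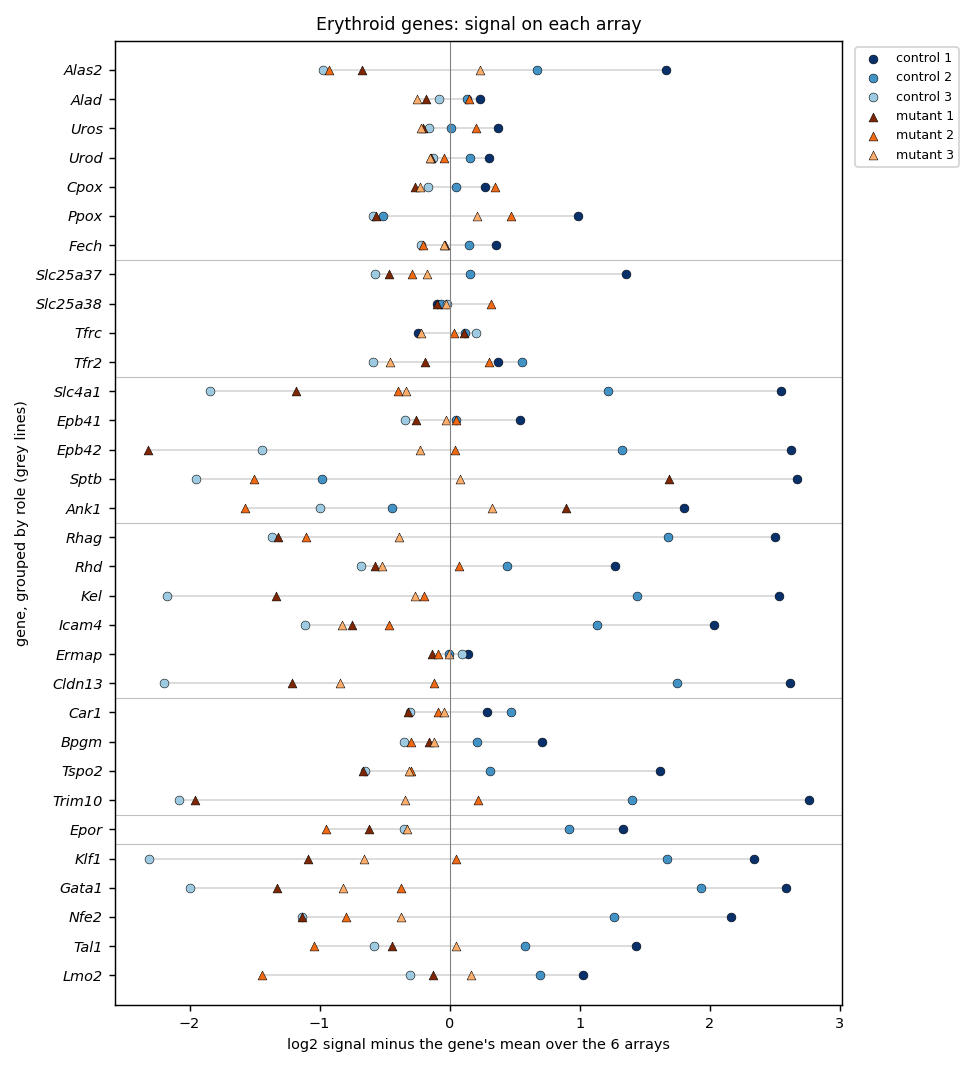
Log2 signal of each of the 32 measured genes on each of the 6 arrays, minus the gene's own mean over the arrays; circles are control mice, triangles are mutant mice, and grey lines separate the roles (heme synthesis, iron supply, membrane skeleton, surface proteins, other red cell proteins, receptor, transcription factors). Controls 1 and 2 lie at the right and control 3 at the left of most genes, with the mutants between or beside control 3.

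The controls differed among themselves more than the groups did. Control 1 read above control 2, and control 2 above control 3, for 26 of 31 genes (83.9%), against 16.0% of all features. Both control 1 and control 2 lay above the other 4 arrays for 22 genes (71.0%), against 5.81% of all features. Control 3 was the lowest of the 6 arrays for 17 genes (54.8%), against 9.69% of all features. The range over the 3 controls had a median of 1.92 for the erythroid genes and 0.35 for all features. Over the 3 mutants it was 0.64 and 0.38. For 29 of 31 genes the control range exceeded the size of the difference between the groups, as it did for 83.7% of all features. The groups did not overlap for 1 of 31 genes with the mutants lower, the surface protein gene Ermap, against 3.75% of all features.

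**Figure D2:**
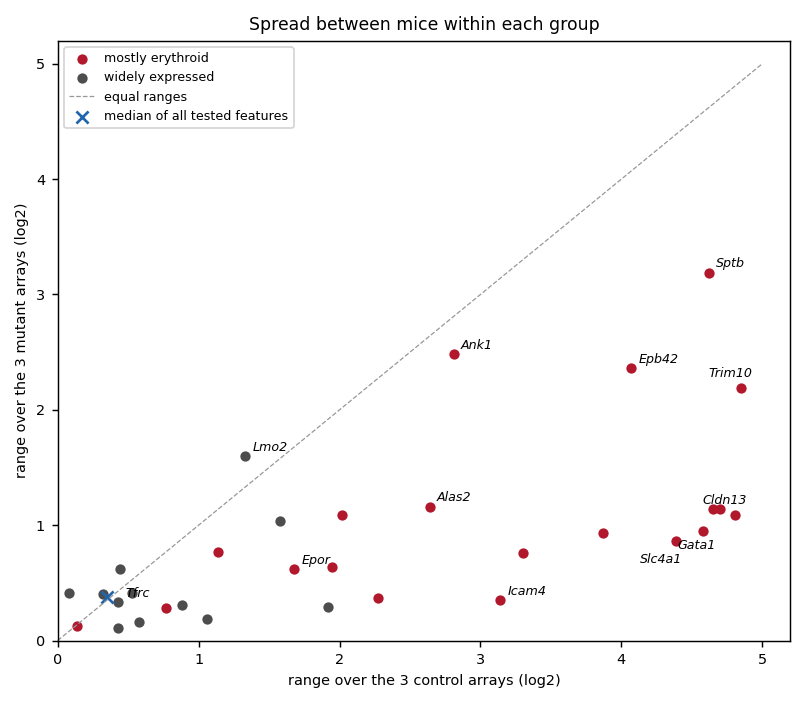
Range of log2 signal over the 3 control mice (horizontal axis) against the range over the 3 mutant mice (vertical axis) for the 32 genes with a probe, the untested Rhag among them. The dashed line marks equal ranges and the cross marks the medians of all tested features. For 27 of the 31 tested genes the control range was the larger, and mostly erythroid genes (red) reach control ranges above 4 while most widely expressed genes (grey) stay near the cross. Of the ranges above 4, those of Epb42, Sptb, Cldn13, Trim10 and Klf1 include a control 3 value that was not well above background.

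Heme synthesis was represented by 7 enzymes. Of these, 6 had a lower mean in the mutants, 0 passed the test, and the median difference was -0.19 (-0.06 without control 1). Alas2, the erythroid enzyme that starts the pathway, read 2.56, 1.57 and -0.08 on controls 1 to 3 and 0.22, -0.03 and 1.13 on mutants 1 to 3. Controls 1 and 2 lay above every mutant and control 3 below every mutant, so the groups overlapped. Mean signal was 1.35 ± 1.34 (SD, n = 3) over the controls and 0.44 ± 0.61 (SD, n = 3) over the mutants. The difference was -0.91 (SE 0.68, 95% interval -2.54 to 0.72) with a limma adjusted p of 0.987. Within the controls alone, Alas2 was 6.25-fold brighter on control 1 than on control 3.

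The 6 enzymes after Alas2 are used by nearly every cell, and they varied less. Fech, which inserts the iron into protoporphyrin in the last step, read 3.27, 3.06 and 2.69 on the controls and 2.88, 2.71 and 2.87 on the mutants, a difference of -0.19 (SE 0.17). Control 3 again lay just below the lowest mutant. Urod, which acts on uroporphyrinogen in the cytosol, read 4.04, 3.90 and 3.61 on the controls and 3.60, 3.70 and 3.59 on the mutants, where mutant 2 exceeded control 3. Alad and Uros, which act earlier in the cytosol, had differences of -0.19 (SE 0.16) and -0.15 (SE 0.19). Cpox, which oxidises coproporphyrinogen, differed by -0.11 (SE 0.21) and was highest on mutant 2. Ppox, the enzyme before Fech, was the exception in direction, at 1.15, -0.35 and -0.43 on the controls and -0.41, 0.63 and 0.37 on the mutants. Only control 1 stood above all mutants for Ppox, and the difference was 0.07 (SE 0.49). Even so, control 1 read above control 2 and control 2 above control 3 for all 7 enzymes.

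Iron supply and the mitochondrial carriers gave 4 genes, of which 3 had a lower mean in the mutants and 0 passed the test, with a median difference of -0.14 (-0.27 without control 3). Slc25a37 (mitoferrin 1), which carries iron into the mitochondria of erythroid cells, read 3.38, 2.18 and 1.45 on the controls and 1.56, 1.74 and 1.85 on the mutants. Control 1 stood apart, 3.79-fold above control 3, and the group difference was -0.62 (SE 0.46, 95% interval -1.73 to 0.48). Slc25a38, which brings glycine into mitochondria for the Alas2 step, stayed within 2.60 to 2.68 on the controls and read 2.60, 3.02 and 2.67 on the mutants, a difference of 0.12 (SE 0.14). Tfrc, the transferrin receptor that all dividing cells use, ran the other way among the controls, at 1.44, 1.80 and 1.88, with 1.79, 1.71 and 1.46 on the mutants. It was lowest on control 1, where most of the other genes were highest, and its group difference was -0.05 (SE 0.17). Tfr2, the second transferrin receptor, made in liver and erythroid cells, had control 3 as its lowest array at -1.71 and differed by -0.23 (SE 0.35).

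The membrane skeleton and its anchors gave 5 genes with the widest ranges, a median of 4.07 over the controls and 2.36 over the mutants. Both medians are the ranges of Epb42, which, like Sptb, was not well above background on 3 arrays. These ranges thus rest partly on values near background. Of the 5 genes, 4 had a lower mean in the mutants, 0 passed the test, and the median difference was -0.24. Single controls set that direction: without control 1 the median was 0.06 and 2 of 5 genes were below 0, and without control 3 it was -0.80. Slc4a1 (band 3), the anion exchanger that anchors the skeleton, read 3.31, 1.98 and -1.08 on the controls and -0.42, 0.37 and 0.43 on the mutants. Controls 1 and 2 lay far above the mutants and control 3 below all of them. The difference was -1.28 (SE 1.05, 95% interval -3.81 to 1.26, limma adjusted p 0.987), while control 1 was 20.9-fold brighter than control 3. Epb42 (protein 4.2), which links band 3 to ankyrin, read -2.34 and -3.64 on controls 1 and 2 and -4.92 on mutant 2. Its group difference was -1.67 (SE 1.12), and -0.57 under normexp background correction with quantile scaling. It was not well above background on the other 3 arrays, control 3 among them, and control 1 was at least 6.64-fold brighter than control 3. Epb41 (protein 4.1), which joins spectrin to actin and is made in many tissues, varied less, between 3.04 and 3.92 on the controls and between 3.12 and 3.43 on the mutants.

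The spectrin and ankyrin genes followed another order over the arrays. Ank1 (ankyrin 1) read 0.69, -1.56 and -2.11 on the controls and -0.22, -2.69 and -0.79 on the mutants. Its brightest arrays were control 1, then mutant 1 and mutant 3, and its dimmest was mutant 2. Sptb (beta spectrin) read -1.54 on control 1, -2.52 on mutant 1 and -4.13 on mutant 3, and was not well above background on the other 3 arrays. The differences were -0.24 (SE 0.91) for Ank1 and 0.18 (SE 1.33) for Sptb. Both genes are also expressed in skeletal muscle. A list of 13 skeletal muscle markers, chosen after the values of Sptb and Ank1 were seen, had mean signals, relative to each gene's own mean, of 2.31, -1.0 and -0.84 on the controls and 1.33, -2.30 and 0.50 on the mutants. Control 1, mutant 1 and mutant 3 were thus the brightest for muscle markers too, in the same order as for these genes. Of the 13 markers, 12 had a lower mean in the mutants, with a median difference of -0.35, and without control 1 this median was 0.79. The part of muscle RNA in the values of Sptb and Ank1 was not tested.

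Surface and blood group proteins gave 6 genes, of which 5 were tested. All 5 had a lower mean in the mutants, 0 passed the test, and the median difference was -1.20 (-0.23 without control 1 and -2.26 without control 3). Kel, the Kell blood group protease, read 0.14, -0.95 and -4.57 on the controls and -3.73, -2.59 and -2.66 on the mutants. Controls 1 and 2 lay above every mutant and control 3 below every mutant, and control 1 was 26.1-fold brighter than control 3. The group difference for Kel was -1.20 (SE 1.16, 95% interval -4.00 to 1.61). Icam4, an adhesion protein that erythroblasts use to bind macrophages, read -1.46, -2.36 and -4.60 on the controls and -4.24, -3.96 and -4.32 on the mutants. The mutants lay within 0.35 of one another and just above control 3, and the difference was -1.37 (SE 0.75) with a limma adjusted p of 0.987. Under normexp background correction it was -0.75 with percentile scaling and -0.69 with quantile scaling. Cldn13, a mouse claudin of erythroid cells, read -1.05 and -1.92 on controls 1 and 2 and -4.88, -3.79 and -4.51 on the mutants. Its difference was -1.45 (SE 1.2), and -0.82 under normexp with quantile scaling. It was not well above background on control 3, and control 1 was at least 16.2-fold brighter than control 3.

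Rhd, the Rh blood group protein, read 2.29, 1.46 and 0.34 on the controls and 0.45, 1.09 and 0.50 on the mutants, a difference of -0.68 (SE 0.49). Rhag, its membrane partner, was well above background on controls 1 and 2 only, at -2.60 and -3.42. It was not well above background on control 3 or on any mutant and entered no test. With mutant values raised to at least the lowest signal well above background, its control mean was 2.10-fold above the mutants. Only 2 of 3 controls were measured, and the control mean includes the control 3 value near background, so this fold is not a lower bound. Ermap, an erythroid membrane protein of the immunoglobulin family, was the gene whose groups did not overlap. It read 1.31, 1.16 and 1.26 on the controls and 1.03, 1.08 and 1.16 on the mutants, where control 2 and mutant 3 are equal to 2 decimals. The difference was -0.15 (SE 0.11, 95% interval -0.42 to 0.12).

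The probe chosen for Ermap did not move like the gene's other probes. The second brightest Ermap probe read -0.33, -1.23 and -4.33 on the controls and -3.86, -3.38 and -3.07 on the mutants. It gave a difference of -1.48 (SE 0.97), and control 1 exceeded control 3 by 4.01, against 0.05 for the brightest probe. The third probe, well above background on 4 arrays, gave -1.58 (SE 0.86) and a step of 3.27 between the same controls. Car1 split in the same way, with control 1 above control 3 by 0.58 on its brightest probe and by 4.04 on its second, which was well above background on 3 arrays. For Slc25a37 the second probe was lowest on mutant 2 at -2.44 and spanned only -0.17 to -0.44 on the controls. Of the 6 genes with several probes, Alad differed in sign between probes, at -0.19 (SE 0.16) and 0.19 (SE 0.28). The 3 probes of Tfrc gave -0.05, 0.00 and -0.15, and those of Epb41 gave -0.16, -0.43 and -0.03. Why probes of one gene differ was not tested.

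**Figure D3:**
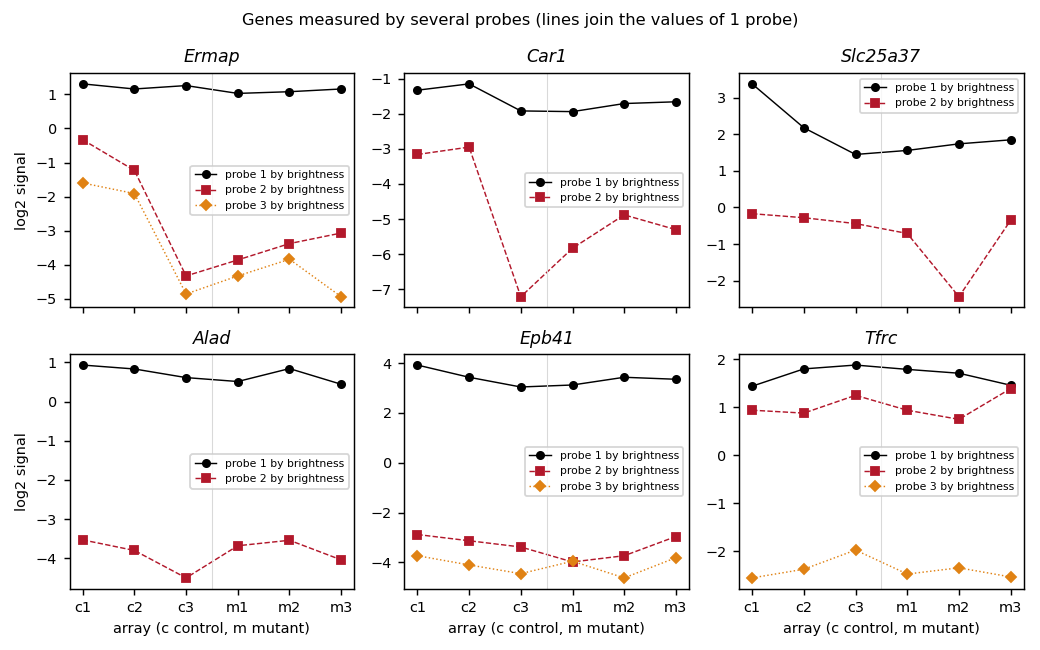
Log2 signal of every probe of the 6 genes that have several, on controls 1 to 3 (c1 to c3) and mutants 1 to 3 (m1 to m3); each line joins the values of 1 probe, and mice have no order along the axis. The brightest Ermap probe is level across the arrays while both dimmer probes drop by more than 3 between control 1 and control 3.

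Other red cell proteins gave 4 tested genes, all 4 with a lower mean in the mutants, 0 past the test and a median difference of -0.62 (-0.25 without control 1 and -1.02 without control 3). Trim10, a ubiquitin ligase of terminal erythroid maturation, read -0.97 and -2.33 on controls 1 and 2 and -3.51 and -4.07 on mutants 2 and 3. It was not well above background on control 3 and mutant 1, and control 1 was at least 17.2-fold brighter than control 3. Tspo2, an erythroid membrane protein that handles cholesterol, read 0.99, -0.32 and -1.28 on the controls and -1.30, -0.93 and -0.94 on the mutants, a difference of -0.85 (SE 0.54). Bpgm, which makes the 2,3-bisphosphoglycerate that loosens oxygen from haemoglobin, differed by -0.38 (SE 0.27). Car1, a carbonic anhydrase abundant in red cells, differed by -0.30 (SE 0.22) on its brightest probe.

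Epor, the erythropoietin receptor, was the gene with an unadjusted limma p below 0.05. It read 0.57, 0.16 and -1.11 on the controls and -1.38, -1.71 and -1.09 on the mutants. The mutants were close together and low, and control 3 lay just below the highest of them, so the groups overlapped by a narrow margin. The means were -0.12 ± 0.87 (SD, n = 3) and -1.39 ± 0.31 (SD, n = 3). The difference was -1.27 (SE 0.43, 95% interval -2.32 to -0.22), or 2.41-fold lower in the mutants, with an unadjusted limma p of 0.0248 and an adjusted p of 0.987. Leaving out control 1 gave -0.92 and leaving out control 3 gave -1.76, with adjusted p-values of 0.998 and 0.297.

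The 5 transcription factors all had a lower mean in the mutants, 0 passed the test, and the median difference was -1.13 (-0.67 without control 1 and -2.49 without control 3). Gata1, the GATA factor that drives erythroid maturation, read 0.47, -0.18 and -4.11 on the controls and -3.44, -2.49 and -2.93 on the mutants. Control 1 was 24-fold brighter than control 3, and all mutants lay between control 2 and control 3. The means were -1.27 ± 2.48 (SD, n = 3) and -2.95 ± 0.47 (SD, n = 3), a difference of -1.68 (SE 1.15, 95% interval -4.46 to 1.1, limma adjusted p 0.987). Klf1, the activator of adult beta globin whose promoter is shown above, read -1.07 and -1.74 on controls 1 and 2 and -4.50, -3.36 and -4.07 on the mutants. It was not well above background on control 3, and control 1 was at least 16.0-fold brighter. Nfe2, a leucine zipper factor of erythroid cells and megakaryocytes, read 0.23, -0.67 and -3.07 on the controls and -3.07, -2.73 and -2.31 on the mutants, a difference of -1.54 (SE 0.80).

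Tal1 and Lmo2, which form a complex with GATA factors, are also made by endothelial cells, and their lowest array was a mutant. Tal1 read 0.43, -0.42 and -1.58 on the controls and -1.44, -2.04 and -0.95 on the mutants, a difference of -0.96 (SE 0.53). Lmo2 read 1.15, 0.82 and -0.18 on the controls and 0.00, -1.32 and 0.29 on the mutants, a difference of -0.94 (SE 0.51). Mutant 2 was the lowest array for both, and for Epor. The 8 endothelial markers, among them Pecam1 and Cdh5, had mean signals, relative to each gene's own mean, of 0.39, 0.54 and 0.13 on the controls and 0.02, -1.13 and 0.05 on the mutants, with mutant 2 lowest as well. Of these markers, 7 had a lower mean in the mutants, with a median difference of -0.79. The part of endothelial RNA in the values of Tal1 and Lmo2 was not tested.

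**Figure D4:**
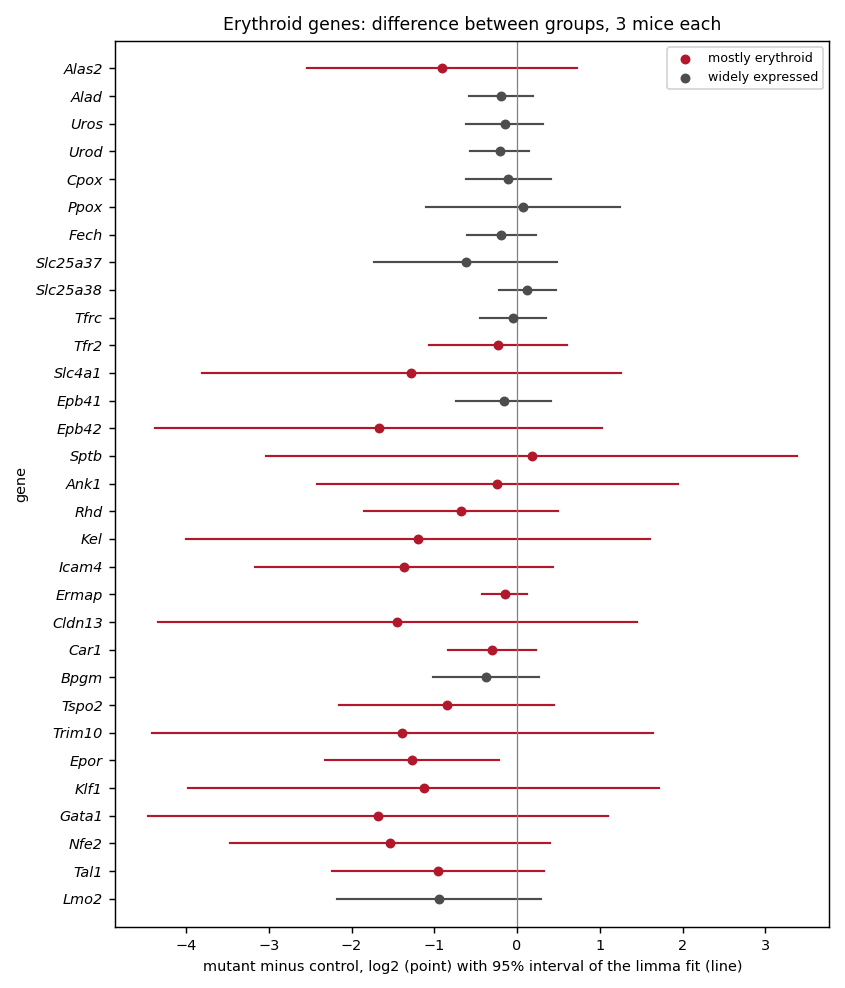
Difference between the 3 mutant and the 3 control mice on the log2 scale for each of the 31 tested genes, with the 95% interval of the limma fit as a line; values below 0 are lower in the mutants. For 28 genes the point lies below 0, and the interval of Epor alone leaves out 0.

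Sorted by where the genes are made, the wide differences lay with the genes that are mostly erythroid or haematopoietic by textbook knowledge. Of 19 such genes tested, 18 had a lower mean in the mutants, with a median difference of -1.13 and a median control range of 3.14. That median was -0.31 without control 1 and -1.76 without control 3. Epb42, Sptb, Cldn13, Trim10 and Klf1, all in this class, were not well above background on control 3. The class median of -1.13 is the difference of Klf1, which was -0.74 under normexp with quantile scaling. Of 12 widely expressed genes, all well above background on 6 arrays, 10 had a lower mean in the mutants, with a median difference of -0.18 and a median control range of 0.56. The median was -0.08 without control 1 and -0.31 without control 3. This class held Slc25a37 (-0.62) and Lmo2 (-0.94), both described above for erythroid cells or their factors. The mostly erythroid class held Tal1, Sptb and Ank1, which other tissues also make. Other ways of assigning the genes were not tested. Relative to each gene's own mean, the mostly erythroid genes averaged 1.83, 0.82 and -1.22 on the controls and -0.70, -0.43 and -0.30 on the mutants. The widely expressed genes averaged 0.48, 0.10 and -0.23, and -0.20, -0.06 and -0.09. The order of the 3 controls was thus the same in both classes and its size smaller in the second. The difference between the classes was not tested.

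How the groups compared depended on single control arrays. Without control 3, the median difference over the 31 genes was -1.06, and 18 of them were lower in the mutants at an unadjusted limma p below 0.05, against 2.23% of all features. Gata1 had the smallest adjusted p of these genes at 0.19, and the smallest over all features was 0.109, so 0 genes passed. Without control 1 the median was -0.22 and without control 2 it was -0.58, and in each of these fits 0 of 31 genes had an unadjusted limma p below 0.05. With each array weighted by its fit to the model (limma's array weights), 11 of 31 genes were lower at an unadjusted p below 0.05, against 8.74% of all features, and 1 was higher, Sptb, against 6.9%. That fit called 4 features at an adjusted p below 0.05, none of them an erythroid gene of the list. On the 4 arrays with Y-linked signal alone, which leave out control 1 and mutant 3, the median was -0.17 and 23 of 31 genes had a lower mean in the mutants. Within the first row of the slide, with mutant 1 as the lone mutant, the median was -0.60.

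Markers of other marrow cells averaged highest on controls 1 and 2, as the erythroid genes did, but differed in their lowest array. That was control 3 for erythroid genes, mutant 1 for neutrophil and B lymphocyte markers, and mutant 2 for megakaryocyte and mast cell markers. Globins and other erythroid markers outside the list averaged 1.58, 0.56 and -0.86 on the controls and -0.75, -0.57 and 0.03 on the mutants, and all 8 tested had a lower mean in the mutants, with a median difference of -0.99. Neutrophil markers, among them Mpo and Elane, averaged 1.99, 1.14 and -0.79, and -1.35, -0.74 and -0.26, with 13 of 13 lower and a median difference of -1.60. B lymphocyte markers, among them Cd79a and Cd79b, averaged 1.39, 1.35 and -0.88, and -0.91, -0.79 and -0.15, with 8 of 8 lower and a median of -1.53. In all 3 lists control 1 and control 2 were the brightest arrays, as they were for the mostly erythroid genes. Single controls moved these medians too: without control 1 they were -0.28, -0.77 and -1.02 for the erythroid, neutrophil and B lymphocyte markers, and without control 3 they were -1.66, -2.56 and -2.38. Megakaryocyte markers averaged 0.95, 0.44 and -0.46, and -0.19, -0.80 and 0.06, with a median difference of -0.25 (-0.11 without control 1). Mast cell markers averaged 1.18, 0.49 and -0.48, and 0.38, -1.39 and -0.17, with 5 of 5 lower and a median of -0.85 (-0.36 without control 1 and -1.47 without control 3). The part of marrow cells of these kinds in the values of the erythroid genes was not tested.

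Markers of chondrocytes, osteoclasts and macrophages followed other orders over the arrays. Chondrocyte markers averaged -0.34, -0.02 and -0.02 on the controls and -0.02, 0.39 and 0.01 on the mutants, and 9 of 10 had a higher mean in the mutants, with a median difference of 0.32 (0.18 without control 1). Control 1, the brightest array for most erythroid genes, was the dimmest for chondrocyte markers. Osteoclast markers averaged 0.42, 0.94 and 0.83 on the controls and -0.06, -2.24 and 0.11 on the mutants, with control 2 and control 3 the brightest, and 6 of 6 had a lower mean in the mutants (median -1.51). Markers of the macrophages at the centre of erythroblast islands averaged 0.29, 0.53 and 0.23, and -0.09, -0.94 and -0.02, with 4 of 5 lower and a median of -0.55. On neither list did control 3 lie below 0. How the makeup of each tissue sample bears on the erythroid genes was not tested.

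**Figure D5:**
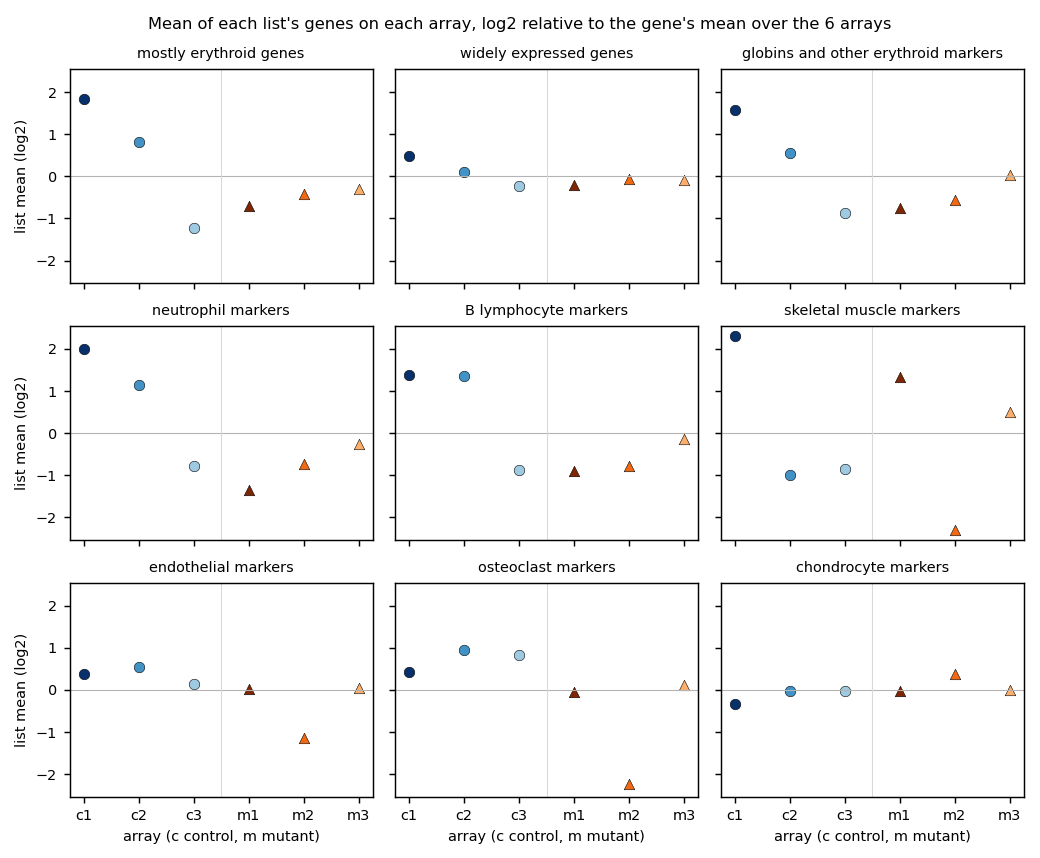
Mean over the genes of each list of the log2 signal minus the gene's mean over the 6 arrays, on controls 1 to 3 (c1 to c3, circles) and mutants 1 to 3 (m1 to m3, triangles). The mostly erythroid genes, globins, neutrophil and B lymphocyte markers are highest on controls 1 and 2, muscle markers are highest on control 1 and mutant 1, and endothelial and osteoclast markers are lowest on mutant 2.

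Wider lists of the same pathways, which hold many genes of general use, had medians nearer to that of all features, and 0 of their genes passed the adjusted test. Of 32 further heme and iron genes tested, 21 had a lower mean in the mutants, 0 had an unadjusted limma p below 0.05, and the median difference was -0.07. Among those with the smallest p were Ncoa4, the receptor that sends ferritin to lysosomes, at -0.30 (SE 0.14), the iron regulator Hfe at -0.70 (SE 0.34), and Erfe, the hormone by which erythroblasts lower hepcidin, at 0.57 (SE 0.27). Of 27 further red cell membrane genes, 20 had a lower mean, with a median of -0.24. Without control 1 that median was -0.03 and 14 had a lower mean. At an unadjusted limma p below 0.05, met by 1.88% of all features as lower and 1.55% as higher, Abcb4, a phospholipid transporter, was lower (-0.97, SE 0.38) and Bsg, the basigin glycoprotein, was higher (0.36, SE 0.14).

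Of 22 tested genes of the red cell cytosol and maturation, 18 had a lower mean in the mutants, with a median difference of -0.18 (-0.08 without control 1). The 4 with an unadjusted limma p below 0.05 were all lower (against 1.88% of all features), Nxpe2 at -2.06 (SE 0.35), the glutathione enzyme Gclm at -0.41 (SE 0.12), the amino acid transporter Slc43a1 at -0.39 (SE 0.14) and the peroxidase Gpx1 at -0.34 (SE 0.13). Of 31 further regulators and members of Epo signalling, 19 had a lower mean, with a median of -0.15. Of these, 3 were lower at an unadjusted limma p below 0.05, against 1.88% of all features, and 0 were higher. They were Ikzf1, the lymphoid and erythroid factor Ikaros, at -2.26 (SE 0.84), the receptor Kit at -0.63 (SE 0.25), and Socs3, a brake on cytokine receptors, at -0.41 (SE 0.11). Ikzf1 was well above background on only 3 arrays and Nxpe2 on 5, so the sizes of these differences rest partly on values near background. Among the globins, Hbb-b2 differed by -1.31 (SE 0.47) and Hba-a1 by -0.95 (SE 0.62), beside -1.68 for Gata1 and -1.28 for Slc4a1. Each of these genes had a limma adjusted p above the threshold of 0.05.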

How the data were processed

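Per the submitters' processing notes, the authors read the scans with Agilent Feature Extraction, version 10.7.1.1. The deposited values are intensity readings of each spot, with background already subtracted, and arrays were not yet scaled to one another. A value table that the authors deposited holds a linear ratio to each array's 75th percentile, as read from the values (75th percentile 1, medians 0.094 to 0.104, r = 1.00 with the scanner values), and how it was made is not given in the sources used here. Per the labels' protocols the dye was Cy3, while another field of the labels names Cy5. Per the file headers the design refers to mm9.

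Accessions were matched without versions to a RefSeq gene table (GRCm38.p6), which named 27656 of 55681 probes. Processed signals were put on the log2 scale, and each array's 75th percentile (510.3 to 631.0 intensity units) was subtracted. Control and outlier spots were left out. Probes well above background on at least 3 of 6 arrays were kept (35236, of which 8 were dropped as outliers), and the brightest probe stood for each gene. Mutants were tested against controls with limma 3.58.1 (R 4.3.3, two-sided, 4 residual and 2.42 prior degrees of freedom), with Benjamini-Hochberg adjustment over all features at a threshold of 0.05. The script was tested on simulated data. The replicates are separate mice, per the series text, and 3 arrays per group limit the precision. A fold given as "at least" sets the bright array against the higher of the dim probe's value and the lowest signal well above background. The fold of Rhag sets the control mean against mutant values treated in the same way.

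The genes and lists were chosen with earlier results of these data known. All listed genes are named, and of each wider list at most the 4 with the smallest p, besides globins and cell markers named as examples. The skeletal muscle list was added after the values of Sptb and Ank1 were seen. Alternatives were 2 normexp settings (offset 50, on the median spot signal, since no mean signal was in the files used), the authors' table, other filters and probe rules, array weights, a trended robust fit, a replicate block, each array left out, and subsets by row and Y-linked signal.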

Additional observations from a re-analysis of the deposited data

How the results depend on the processing

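With 3 mice per group, signal over background limits Epb42, Sptb, Trim10, Cldn13, Klf1 and Rhag, which were not well above background on 1 to 4 arrays. Deviations from the group mean correlated at 0.2, 0.06 and -0.16 for same-numbered mice and at -0.23 to 0.24 for the other pairs. These values cannot show whether the replicate numbers pair the samples. A fit with the number as a block gave the same median (-0.62), 28 genes below 0, 1 at an unadjusted p below 0.05 and 0 features past the adjusted threshold. Leaving out each array gave medians of -1.06 to -0.22, 25 to 30 genes below 0, and 0 to 18 genes at an unadjusted p below 0.05. That last count, 1 in the comparison as reported, was 12 with array weights, where 8.74% of all features were lower and 6.9% higher at that p. It was 0 on the Y-linked arrays and 2 (Sptb and Ank1, both higher) without control 1 and mutant 2. For the fits on these subsets the share over all features was not counted, so their counts cannot be set against it. Features past the adjusted threshold were 4 with array weights and 0 under every other alternative. Of 553 values of single genes, 31 changed sign, in 9 genes. Normexp with percentile and quantile scaling gave Sptb -0.23 and -0.18, and smaller differences for dim genes: Epb42 -0.63 and -0.57, Icam4 -0.75 and -0.69, Cldn13 -0.90 and -0.82, Trim10 -0.94 and -0.86, and Klf1 -0.80 and -0.74. Array weights gave larger ones for Epb42 (-2.67), Trim10 (-2.33) and Klf1 (-1.85). They also gave Slc25a38 -0.0015 and Ank1 1.06. The Y-linked arrays gave Uros 0.07, Cpox 0.09, Tfr2 0.07, Epb41 0.04 and Ank1 0.39. The first row gave Ppox -0.53, Slc25a38 -0.04, Tfrc 0.09 and Ank1 0.78. Without control 1 and mutant 2, Slc25a38 was -0.02, Epb41 0.0011 and Ank1 1.34. Leaving out single arrays gave ranges of -0.30 to 0.0045 for Cpox, -0.38 to 0.06 for Epb41, -0.80 to 0.61 for Ank1, -0.20 to 0.59 for Ppox, -0.75 to 1.55 for Sptb, -0.18 to 0.05 for Tfrc and -0.0031 to 0.20 for Slc25a38. The cause was not tested. The other 22 genes, Epor (-1.76 to -0.92 with arrays left out) and Gata1 (-3.10 to -0.81) among them, kept their sign throughout.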
